A study of Danio rerio with 6 samples.

Results

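Many zebrafish transcripts are still listed under the name of the DNA clone in which they were found and not under a gene symbol. The 120 loci described here carry such clone names and were strongly lower in RNA-seq libraries from *dusp2/dusp6* double mutant embryos than in wildtype libraries. They were chosen by their counts. A row of the count table became a member where its mean wildtype level was at least 0.5 CPM (the expected count as a share of the library total, scaled to 1000000), its mean wildtype CPM was at least 3 times its mean mutant CPM, and its highest mutant CPM lay below its lowest wildtype CPM. The count table has 23150 rows. A clone name is carried by 5430 of them, 3317 of these reached 0.5 CPM in wildtype and 120 (3.62%) met the whole rule. The difference between genotypes is therefore how the loci were found, and it is given below as a description without a test.

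Each library came from a pool of whole embryos, taken at 18 hpf with the chorion and yolk removed, 3 of wildtype genotype (dusp2+/+;dusp6+/+) and 3 of genotype dusp2um287/um287;dusp6um286/um286. Both mutant alleles are deletions made with CRISPR, and each line goes back to a single founder. The double mutant embryos had homozygous mutant mothers and fathers, so no wildtype allele of either gene came from either parent. The paper reports that a large part of the embryos of this cross stall before dividing and die before gastrulation ends. The mutant pools were taken later and thus held survivors. Wildtype embryos came from the Ekkwill strain, and genotype cannot be told apart from the parental stock of the pools or from this survival. Dusp6 and Dusp2 are dual-specificity phosphatases known for removing phosphate from MAP kinases, and *dusp6* is a feedback target of FGF signaling.

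Names starting with si: were given at the Sanger Institute to gene models on sequenced genomic clones, with the library and plate address of the clone and a running number after it. Names starting with zgc: come from full-length cDNAs of the Zebrafish Gene Collection, names starting with wu: or im: from expressed sequence tags, and names of a pair of letters with a run of digits from the database entry of a genomic clone. Such loci often belong to tandem families of near-identical copies. The program that made the counts, RSEM, divides a read that matches several transcripts among them, so a fractional expected count shows that reads of a locus were shared and a whole count shows no trace of sharing.

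The expected counts summed to 36310355 to 45161306 per library. The labels were checked with the deleted genes. *dusp6* had 225 ± 7.40 CPM in wildtype libraries and 30.5 ± 2.20 CPM in mutant libraries (SD, n = 3 libraries each), and *dusp2* had 51, 35 and 71 counts in wildtype replicates A, B and C and 3, 7 and 7 in mutant replicates A, C and D. Of 27 markers in 10 lists for tissues of the segmentation stage embryo 25 were found, and none of these was at 0 in any library. Summed marker levels overlapped between genotypes for the hatching gland and for the yolk syncytial layer and liver. They did not overlap in the other 8 lists: somite 313 to 384 CPM in wildtype and 149 to 264 in mutants, notochord and tailbud 137 to 154 and 172 to 250, hindbrain 82.6 to 87.4 and 88.0 to 95.6, forebrain 106 to 108 and 66.5 to 76.5, erythroid 68.4 to 84.7 and 106 to 125, myeloid 8.74 to 10.5 and 19.4 to 27.1, germ cell 6.86 to 8.23 and 15.4 to 23.4, and epidermis 15570 to 16078 and 20246 to 24879. Gaps in the lower direction were frequent among clone-named rows at 0.5 CPM or more, where 29.9% had every mutant CPM below every wildtype CPM. The share of gaps over all rows or in either direction was not computed, and the hindbrain gap was narrow. The 8 lists thus have no matching background, and nothing is read from the number of lists with a gap. Mutant replicate D stood apart from the other mutant libraries (chi-square per degree of freedom 12.7 and 15.5, against 4.33 between replicates A and C) and had the lowest somite sum. The part of these shifts in the levels of the 120 loci was not tested, and in whole embryos fewer cells of a type and less RNA per cell cannot be told apart.

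Most of the 120 loci had few counts. Mean wildtype levels ran from 0.507 to 235 CPM with a median of 1.47 CPM, and mean mutant levels from 0 to 73.9 CPM with a median of 0.231 CPM. By name 89 loci were of the si: kind (4.10% of the 2170 rows of this kind at 0.5 CPM or more), 12 of the zgc: kind (2.28% of 527), 18 were named by a clone entry (3.17% of 568), 1 was of the wu: kind (of 38) and none of the im: kind (of 14). The share of clone-named rows that met the rule was 6.60% (38 of 576) under 1 CPM, 4.29% (58 of 1353) from 1 to 5 CPM, 2.20% (20 of 910) from 5 to 20 CPM and 0.837% (4 of 478) at 20 CPM or more. The rule was thus met most often where counts are few.

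Among rows without a clone name, 77 of 14979 (0.514%) met the same rule. Turned round, with wildtype and mutant exchanged, it was met by 79 of 3297 clone-named rows (2.40%) and by 57 of 14927 other rows (0.382%). Clone-named rows were thus past a 3-fold difference more often than other rows in both directions. The share also depended on level among clone-named rows, as given above, and the 2 kinds of row were not matched by level. No test was made of these shares.

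**Figure D1:**
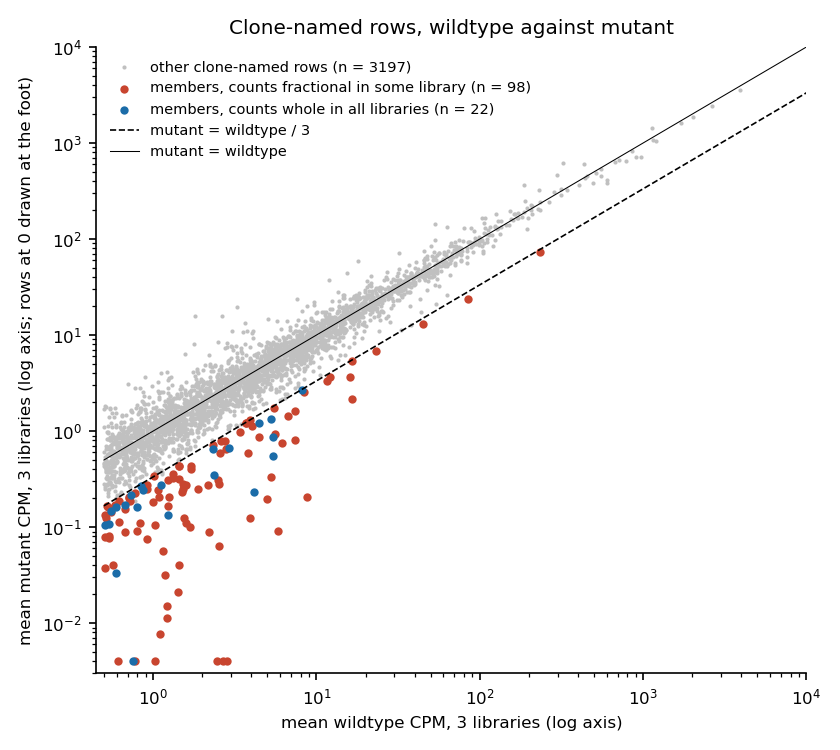
Mean CPM of the 3 wildtype libraries (x axis, log scale) against mean CPM of the 3 mutant libraries (y axis, log scale) for the 3317 clone-named rows with at least 0.5 CPM in wildtype, where the dashed line marks a 3-fold lower mutant level and rows with no mutant count are drawn at the foot. The 120 loci lie under the dashed line by their choice, most of them at the low end of the x axis, and the 22 loci with whole counts (blue) reach from 0.507 to 8.16 CPM in wildtype.

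Within the 120 loci the difference varied in size. The wildtype to mutant ratio was from 3 to 5 for 61 of them and from 5 to 10 for 30, and the other 29 had a ratio of 10 or more or no mutant count at all. Over the 109 loci with more than 3 counts in the mutant libraries together, ratios ran from 3.01 to 64.4 with a median of 4.42. A count was present in every mutant library for 93 loci, 20 were at 0 in 1 or 2 of the mutant libraries and 7 in all of them. The lowest mutant CPM was in replicate A for 33, in replicate C for 39 and in replicate D for 41 of the 113 loci with a mutant count. Loci at 0 in 2 mutant libraries were counted for the first of these by letter, so the split is approximate. Without replicate D the rule was met by 123 rows, 103 of them among the 120. The requirement of no overlap between the groups was met by 992 of the 3317 clone-named rows (29.9%) whatever their ratio, and 5 more rows met the rule in all but this point. The spread among wildtype libraries was wide, with a median coefficient of variation of 17.3% against 10.2% over all 3317 rows. It was 24.2% for the 38 members under 1 CPM and 8.49% for the 24 members at 5 CPM or more.

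In the edgeR fit over 20021 rows (quasi-likelihood test) a row was called past a 2-fold change at a Benjamini-Hochberg adjusted p of 0.05, which 992 rows (4.95%) met, 2.42% lower and 2.54% higher. Beside this background, and 6.2% lower among the 4003 clone-named rows tested, 118 of the 119 members that passed the filter on low counts were called lower. The rule used this contrast, so nothing is read from that count. Fitted log2 fold changes of the 119 ran from -9.81 to -1.53 with a median of -2.25, beside medians of 0.00 over all rows and 0.02 over clone-named rows. The member not called was *si:dkey-22h13_6*, with expected counts of 18.87, 37.72 and 54.89 in wildtype and 16.7, 19.52 and 0 in mutants and -1.61 ± 0.61 log2 units (± standard error) between genotypes. Without mutant replicate D, its only library at 0, the log2 fold change was -1.08 and the row was called. *si:dkey-100j22_3*, with 21.68, 6.64 and 47.46 counts in wildtype and none in mutants, did not pass the filter.

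The loci with the most counts had wildtype to mutant ratios just above the limit of the rule. *si:dkey-239j18_3*, a protein-coding locus, had 8971.86, 9168.07 and 9487.95 expected counts in wildtype replicates A, B and C and 3310.2, 3994.75 and 2062.52 in mutant replicates A, C and D. This corresponds to 235 ± 21.4 against 73.9 ± 17.9 CPM (SD, n = 3 each), with mutant replicate D lowest and every mutant library far below every wildtype library. For *si:dkey-18j14_5* the means were 85.3 ± 7.40 CPM and 23.8 ± 1.25 CPM. *zgc:112970*, also protein-coding, had 1654.05, 1680.62 and 1943.94 counts in wildtype and 558.04, 527.59 and 536.12 in mutants, or 44.6 ± 1.39 against 13.0 ± 1.15 CPM. The standard error of the log2 fold change was 0.07 for both *si:dkey-18j14_5* and *zgc:112970*. Both rows had fractional counts in all 6 libraries, and this error does not cover the division of reads.

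The next loci in order of wildtype CPM, which is an order of counts since it is not divided by length, were *BX324210_1* (23.2 ± 2.62 against 6.78 ± 0.705 CPM), *si:dkey-253d23_3* (16.6 ± 0.434 against 5.37 ± 1.19 CPM), *zgc:109934* (16.5 ± 1.02 against 2.15 ± 1.11 CPM) and *zgc:174680* (16.1 ± 0.579 against 3.64 ± 0.0560 CPM). *zgc:109934* stands out among these by its ratio of 7.67 and by the scatter of its mutant counts, 72.6, 152.43 and 50.36 after 640.89, 587.39 and 719.53 in wildtype. Mutant replicate C was the highest of the mutant libraries for this row. *AL954676_2*, *si:dkey-259p7_1* and *si:ch211-253d24_2* had 12.1, 11.6 and 8.45 CPM in wildtype and 3.68, 3.35 and 2.56 CPM in mutants. *si:dkey-256i11_2* was the exception in this range. It had 303.11, 333.79 and 404.14 counts in wildtype and 16.66, 9.03 and 1.0 in mutants, a ratio of 42.4, and mutant replicate D held its lowest value. Its fitted log2 fold change was -5.28 with all libraries and -6.09 without mutant replicate A. Its counts were fractional in 5 libraries. The sum over all rows named from its clone was 93.0 CPM in wildtype and 66.4 CPM in mutants, a ratio of 1.40.

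**Figure D2:**
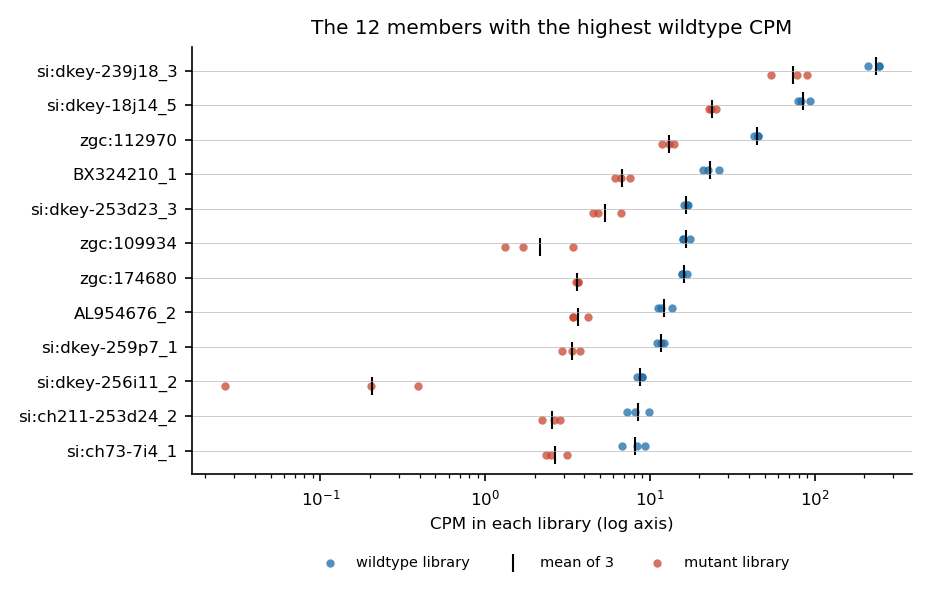
CPM in each library (x axis, log scale) of the 12 loci with the highest mean wildtype CPM (rows), with blue points for the 3 wildtype libraries, red points for the 3 mutant libraries and black bars for the means. In most rows the red points lie a similar distance to the left of the blue ones, in *zgc:109934* farther off, and in *si:dkey-256i11_2* farthest and with the widest spread.

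Ratios of 10 or more came from loci at 0.508 to 8.77 CPM in wildtype. 7 loci had no count in any mutant library, and for these the fold in expected counts is a lower bound against 3 counts over the mutant group. *zgc:198329*, a protein-coding locus, had 93.47 to 127.69 counts per wildtype library and was at least 118-fold lower. *si:ch211-215p11_5* and *si:ch211-215p11_3*, named from the same clone, were at least 111-fold and at least 103-fold lower, *CT573263_3* at least 43.1-fold, *si:ch211-209p16_4* at least 32.2-fold, *si:ch1073-188e1_1* at least 31.5-fold and *si:dkey-100j22_3* at least 25.4-fold. In 4 more loci the mutant libraries held 1 to 3 counts in all, so their ratios are loose: 141 for *si:dkeyp-110b2_2* (95% counting interval 24.0 to 5421), 108 for *si:dkeyp-44b5_3* (27.2 to 6130), 80.2 for *BX649556_2* (20.8 to 638) and 67.4 for *si:dkey-9i5_1* (19.9 to 290). Their wildtype counts were between 40.02 and 65.72 in every library, so presence in wildtype did not rest on a single pool. Ratios and bounds are from unrounded values and intervals from counts rounded to whole numbers, and both cover counting error only. They do not cover the division of reads among copies. Of the loci without a mutant count, all but *si:ch1073-188e1_1* had fractional counts in wildtype. Where the clones of these loci held further rows, the sums given below had lower ratios. This follows from adding rows with mutant counts to rows with few or none, so nothing is read from it. On *si:ch211-215p11* the sum was 17.5 CPM in wildtype and 21.4 CPM in mutants.

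With more mutant counts behind them, *zgc:174275* had 228.42, 174.95 and 291.59 counts in wildtype and 1.73, 1.56 and 7.43 in mutants, and *zgc:174862* had 151, 105 and 216 against 7.92, 5 and 3. Their ratios were 64.4 and 31.2. Both are protein-coding in the annotation, and their mutant libraries did not come near the wildtype range. Lower ratios were found in some members with counts in a single mutant library. *CR376825_1* (ratio 12.6) had 15.72 counts in mutant replicate A and none in the other mutant libraries. *CU633479_6* (ratio 20.4) had 7.56 in replicate C alone and *si:dkey-90a24_1* (ratio 12.1) had 8.68 in replicate D alone.

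Among the members of middling level given next, ratios ran from 3.16 for *si:ch211-234c11_1* to 9.29 for *BX511021_4*. Other members at such levels had higher ratios, among them *zgc:174275* above (64.4). *BX511021_4* had 294.49, 305.45 and 270.01 counts in wildtype and 44.59, 45.82 and 12.49 in mutants, with replicate D lowest, and *si:dkey-29j8_3*, protein-coding, had 216.65, 227.24 and 288.57 against 28.73, 29.53 and 35.49. *si:dkey-117j14_6* had 385.91, 235.73 and 229.4 against 64.51, 66.38 and 70.15, where wildtype replicate A was well above the other wildtype libraries. *si:dkeyp-85d8_5* had 273.88, 218.57 and 305.26 against 48.02, 52.34 and 74.59, and *si:ch211-234c11_1* had 195.58, 226.82 and 225.35 against 76.46, 74.77 and 66.39. In all of these rows the mutant counts were spread less than the distance between the genotypes. A looser pattern was seen in *si:ch211-187d1_3*, with 179.62, 215.67 and 114.17 counts in wildtype and 77.16, 20.27 and 13.73 in mutants, where the highest mutant and the lowest wildtype library came close.

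Whole and fractional counts divide the members unevenly. A row was taken as whole where all of its 6 expected counts lay within 0.005 of a whole number. 22 of the 120 members (18.3%) were whole, beside 674 of the 3317 clone-named rows at 0.5 CPM or more (20.3%), 3849 of 14979 rows without a clone name (25.7%), and 40 of the 77 rows without a clone name that met the same rule (51.9%). 57 members (47.5%) were fractional in all 6 libraries, beside 49.0% of the clone-named rows, 20.8% of the rows without a clone name and 13.0% of those 77. The members thus had about the make-up of clone-named rows at large, with shared reads in 98 of 120. Whole rows among the members had ratios from 3.06 to 18.1 with a median of 4.10 (21 rows with a mutant count) and a median wildtype level of 0.996 CPM. For the 98 members with a fraction in some library the median ratio was 4.89 (92 rows with a mutant count) and the median wildtype level 1.52 CPM. A ratio of 10 or more, or no mutant count, was found in 3 of the 22 whole rows (13.6%) and in 26 of the 98 others (26.5%).

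**Figure D3:**
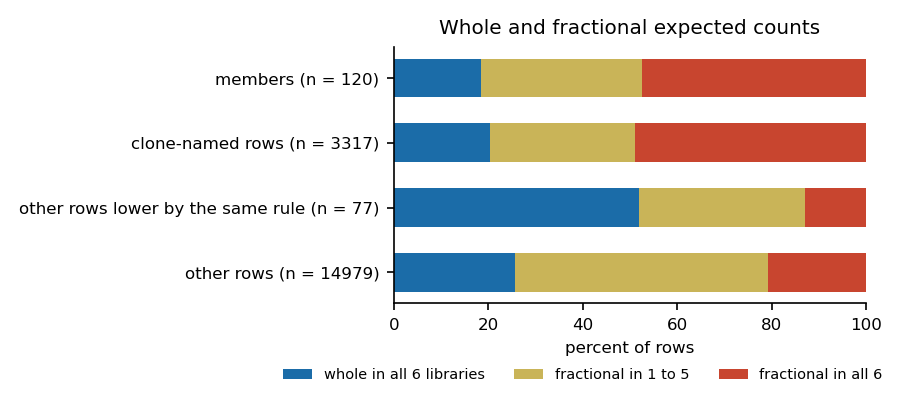
Percent of rows (x axis, from 0 to 100) whose expected counts were whole in all 6 libraries (blue), fractional in 1 to 5 libraries (yellow) or fractional in all 6 (red), for the 120 members, the 3317 clone-named rows at 0.5 CPM or more, the 77 rows without a clone name that met the same rule and the 14979 rows without a clone name at 0.5 CPM or more. The top bars, 18.3% and 20.3% whole, are nearly alike, and the third bar, 51.9% whole, differs from them.

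The 22 whole rows are the members whose counts show no trace of a division of reads among copies. *si:ch73-7i4_1*, protein-coding, had 341, 308 and 306 counts in wildtype and 99, 113 and 119 in mutants. *wu:fj08f03* had 200, 206 and 240 against 21, 29 and 19, and *si:dkey-24p1_6* had 207, 211 and 223 against 44, 46 and 21. In these rows every wildtype count was more than 2 times the highest mutant count. *si:ch211-229g11_6*, annotated as a long non-coding RNA, had 209, 187 and 224 counts against 65, 81 and 27, with mutant replicate D lowest. *si:dkey-97i18_5* had 200, 157 and 167 against 41, 62 and 49, and *CU633740_1* had 164, 146 and 182 against 5, 8 and 15, the highest ratio among the whole rows with a mutant count, 18.1.

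Lower down, *si:ch73-390p7_2* had 102, 122 and 122 counts in wildtype and 17, 30 and 35 in mutants, *si:ch73-364m4_1* had 106, 77 and 95 against 12, 19 and 13, and *si:ch211-163b2_2* had 94, 76 and 107 against 24, 24 and 32. *si:ch211-79h18_2* had 50, 42 and 54 against 8, 7 and 2, and ENSDARG00000077263, a row given here by its Ensembl identifier, had 40, 33 and 62 against 6, 8 and 19 (log2 fold change -2.01, and -2.74 without mutant replicate D). *si:ch1073-188e1_1*, protein-coding, had 31, 26 and 32 counts in wildtype and none in any mutant library, the only whole row at 0 throughout. *si:dkey-61p9_7* came next with 21, 27 and 21 against 2, 0 and 2. The 9 whole rows not yet given had 13 to 39 counts in wildtype libraries and 1 to 21 in mutant libraries. Among them *si:ch73-127k6_1* had the narrowest gap between the groups in proportion, with 25, 30 and 31 counts in wildtype and 2, 21 and 5 in mutants.

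**Figure D4:**
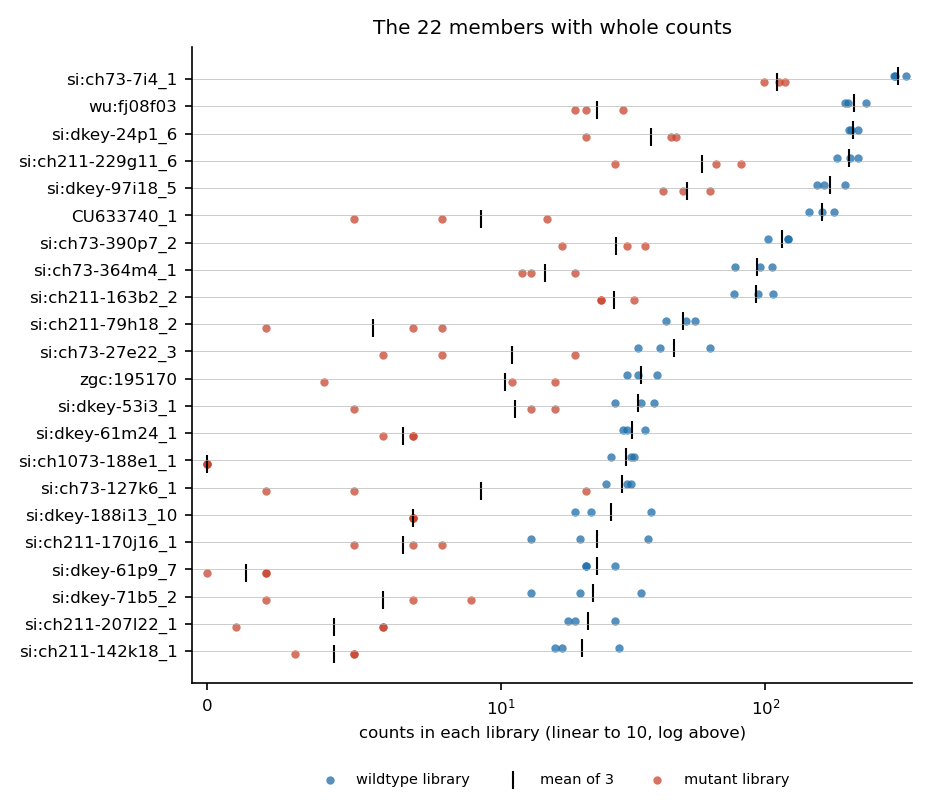
Counts per library (x axis, linear up to 10 and log above) of the 22 members with whole counts, ordered by wildtype level, with blue points for the 3 wildtype libraries, red points for the 3 mutant libraries and black bars for the means. Red and blue points are well apart in the upper rows and come close in *si:ch73-127k6_1*, where mutant replicate C had 21 counts beside 25 in the lowest wildtype library.

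For members with fractions, the row that took the other part of the reads was looked for among all rows of the table. Of 73 members with a fraction in at least 5 libraries, 2 had a partner whose counts summed with theirs to a whole number in every library, within 0.01. The first, ENSDARG00000111423 (rows of its clone are given by Ensembl identifier), had 22.01, 33.85 and 28.78 counts in wildtype and 9.72, 7.54 and 6.13 in mutants, and its partner ENSDARG00000116618, named from the same clone, had 11.99, 5.15 and 8.22 against 8.28, 38.46 and 38.87. The sums of the pair were 34, 39 and 37 in wildtype and 18, 46 and 45 in mutants, a ratio of 1.06, so the pooled reads did not separate the genotypes. In mutant replicates C and D the partner held more counts than in any wildtype library. In mutant replicate A its counts lay within the wildtype range, and the sum of the pair, 18, was below every wildtype sum. Member and partner divide the same reads, so the partner's values are no independent measurement and are given without a test. *si:ch73-134f24_1* had 27.43, 26.37 and 38.79 counts against 8.9, 14.19 and 6, and with its partner *CU929328_1* the sums were 48, 56 and 62 against 31, 55 and 30. The ratio of these sums was 1.53, and the wildtype and mutant sums overlapped.

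*si:dkey-41c6_1* and *si:ch211-233b23_5* had equal counts in all 6 libraries, 61.47, 44.7 and 64.23 in wildtype and 20.39, 14.47 and 19.34 in mutants. They count as a single measurement, so the 120 members hold 119 distinct sets of values. The sums of these rows are not whole either. For them and the other members with fractions no single partner was found, so the rows that took the rest of their reads are not known here.

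Clone names allow a further look, since rows named from the same clone lie close together in the genome assembly from which they were named. 107 members are named from 99 clones. 7 of these clones hold more than 1 member, 15 members in all. On *si:dkey-286j17* the only listed rows are both members: *si:dkey-286j17_3* had 69.96, 38 and 62.06 counts in wildtype and 0, 3 and 2 in mutants, and *si:dkey-286j17_4* had 88.46, 63.95 and 108.56 against 9.72, 0 and 1.45. The fitted log2 fold change of the latter was -4.54, and it was -7.12 without mutant replicate A and -3.93 without mutant replicate C, while that of the former was -5.01 and -5.64 without mutant replicate C. The sum over the clone was 28.2 times higher in wildtype. On *si:dkeyp-44b5* the listed rows, *si:dkeyp-44b5_3* and *si:dkeyp-44b5_4*, are again both members. The latter had 197.02, 201.2 and 261.71 counts against 37.28, 39.56 and 38.43, and the sum over the clone was 6.76 CPM in wildtype and 0.936 CPM in mutants, a ratio of 7.22.

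On the other 5 clones members stood beside rows that are no members. Of the 5 rows from *si:ch211-215p11*, 3 are members. *si:ch211-215p11_3* and *si:ch211-215p11_5* had no mutant count, and *si:ch211-215p11_1* had 79.24, 97.84 and 121.57 counts in wildtype and 12.54, 17.47 and 9.54 in mutants, while *si:ch211-215p11_4* had 371.83, 382.27 and 375.3 counts in wildtype and 831.21, 856.74 and 895.33 in mutants. That row rose by 1.17 ± 0.104 log2 units (± standard error, adjusted p = 1.6e-05 from edgeR). The sum over the clone was 17.6, 19.0 and 15.9 CPM in wildtype and 20.2, 19.8 and 24.1 CPM in mutants, so this sum was not lower. Such a sum covers only rows that carry the name of the clone, and these may be separate genes. Whether the members share reads with *si:ch211-215p11_4* is not known here, so the sum does not undo their lower counts. On *si:dkey-29p23* the members *si:dkey-29p23_1* (190.06, 186.33 and 248.6 counts against 21.55, 11.09 and 9.35) and *si:dkey-29p23_2* (84.77, 75.81 and 143.97 against 3.85, 1.37 and 2.69) had ratios of 15.7 and 39.4, while the sum of the clone had a ratio of 2.28. The sums of 2 more clones were closer to even than their members, with a ratio of 1.26 on *si:dkey-22h13* and of 2.38 on *si:ch211-209p16*.

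**Figure D5:**
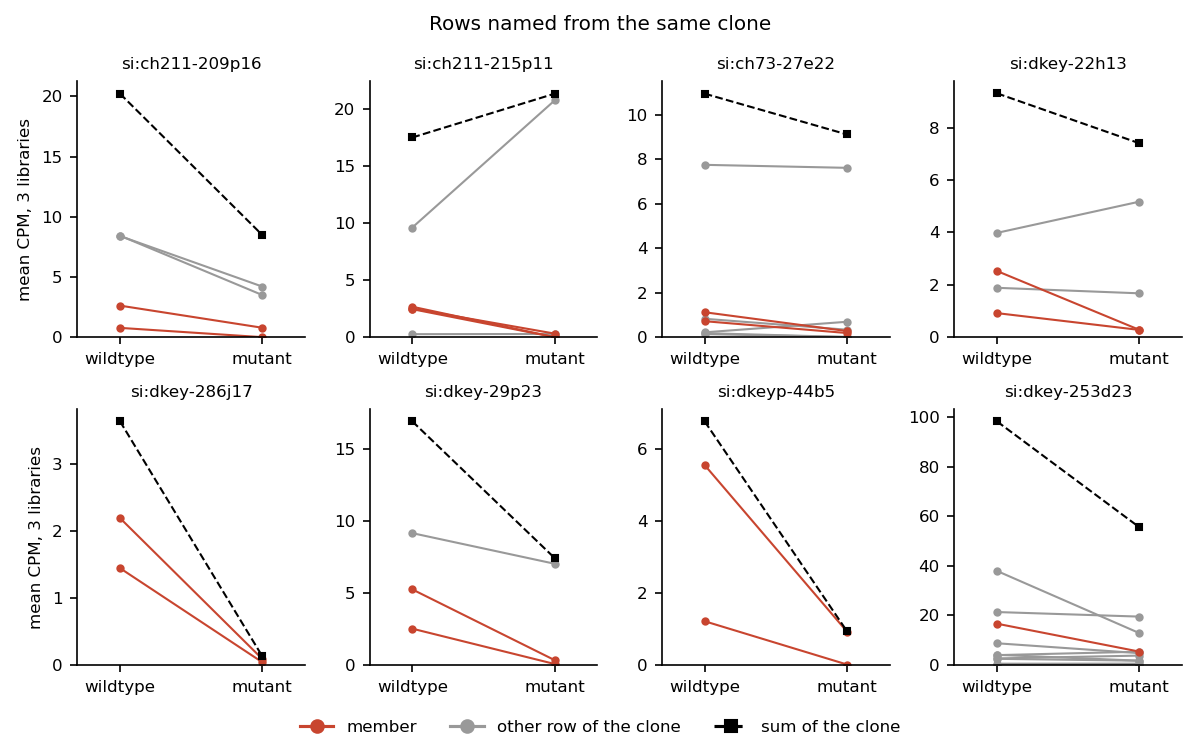
Mean CPM over 3 wildtype and 3 mutant libraries (y axis, linear from 0) of each row named from 8 clones, the 7 clones with more than 1 member and *si:dkey-253d23* with 10 rows, with members in red, other rows in grey and the sum of all rows of the clone in black. The sum drops to near 0 in *si:dkey-286j17*, where every row is a member, and lies higher in mutants than in wildtype in *si:ch211-215p11*, where a grey row goes up.

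Over all clones, 124 rows that are not members are named from the same clones as members, and 85 of these were tested. 13 fell (15.3%) and 5 rose (5.88%), and the other 67 were not called. The rows that rose include ENSDARG00000116618, whose reads were divided with a member. Among all clone-named rows tested that are no members, 3.35% fell and 6.1% rose (6.2% and 5.92% with the members counted). The 85 tested rows from the clones of members had a median log2 fold change of -0.02. The rows that fell include *si:dkey-253d23_4* (37.9 to 12.8 CPM, log2 fold change -1.51, adjusted p = 2.1e-07, edgeR) and *si:ch73-7i4_2* (33.0 to 11.4 CPM, -1.49, 7.0e-07), both just short of the ratio of 3. Summed over every row named from a clone, 14 of 59 clones with a member and another row stayed at a ratio of at least 3, 18 were between 1.5 and 3, 21 between 1 and 1.5, and 6 were higher in mutants. Members were chosen by their ratio and the other rows did not meet the rule. Sums closer to even are thus partly set by the choice, and nothing is read from this split. For clones of members with at most 3 mutant counts, not given above, the ratio of the sums was 1.19 on *si:dkey-9i5*, 1.62 on *CT573263*, 2.67 on *BX649556* and 6.81 on *si:dkey-100j22*. The sum for *si:dkey-239j18*, with the member of the most counts, was 949 CPM in wildtype and 745 CPM in mutants, since the other row of this clone, *si:dkey-239j18_2*, was at 714 ± 32.7 and 671 ± 66.6 CPM (SD, n = 3 each).

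In the current annotation (RefSeq, assembly GRCz12tu, used for names and gene order only) 37 of the 120 members could be matched by name, beside 1362 of the 3317 clone-named rows at 0.5 CPM or more (30.8% and 41.1%). 29 of the 37 are annotated as protein-coding, 6 as long non-coding RNA (16.2%, beside 7.20% of the matched clone-named rows) and 2 as other RNA. The long non-coding RNAs had 110.6, 93.53 and 127.28 counts against 42.81, 24.7 and 14.07 in ENSDARG00000094260 (Ensembl identifier) and 113.31, 119.45 and 176.3 against 51.3, 40.38 and 31.69 in *si:ch211-181p13_2*, and the other 4 are *si:ch211-229g11_6*, *si:dkey-90a24_1*, *si:dkey-22h13_5* and *si:dkey-22h13_6*. 5 of the 37 now go by another name. *zgc:109934* is *fthl31*, a relative of the ferritin heavy chain, the iron-storing enzyme subunit. *zgc:86725* is *acte1*, an actin, *si:ch211-272h9_1* is *ltb4r*, a receptor for the leukocyte attractant leukotriene B4, *si:dkey-188i13_10* is *ifi27.7*, a member of the interferon-inducible ifi27 family, and *wu:fj08f03* is now *si:ch211-153b23.4*.

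The named members were set beside their relatives by symbol, lists that were drawn up after the values were seen. Of 5 ferritin heavy chain rows tested *fthl31* alone was called lower. *fthl27* (*zgc:92066* in the table) was at 187 ± 6.35 CPM in wildtype libraries and rose to 370 ± 11.3 in mutant libraries (± SD over 3 libraries, 1.04 log2 units, adjusted p = 1.2e-07 in edgeR), and the sum of *fthl27* and *fthl31* was 203 ± 5.41 CPM in wildtype and 372 ± 10.2 CPM in mutants. Counts of both rows are fractional in all libraries. The remaining ferritin rows tested, *fth1a*, *fth1b* and *fthl28*, had log2 fold changes from -0.13 to 0.11 and were not called.

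*acte1* had 175, 147.01 and 148.88 counts in wildtype and 60.1, 56 and 29 in mutants. Of the other 8 actin rows, *acta2*, the smooth muscle actin, rose (log2 fold change 3.12, adjusted p = 1.6e-06 in edgeR) and the other 7 were not called. Log2 fold changes of the skeletal and cardiac actins were -0.61 for *acta1b*, -0.55 for *actc2*, -0.48 for *actc1b*, -0.35 for *acta1a* and -0.06 for *actc1a*, and those of the cytoplasmic actins were -0.02 for *actb1* and 0.34 for *actb2*. Mutant replicate D was the lowest mutant library for *acte1*, as it was for the sum of the somite markers. *ltb4r* had 55.8, 43.6 and 37.01 counts in wildtype and 2.94, 0 and 1 in mutants, a ratio of 37.0. Another leukotriene receptor gene, *cysltr1*, fell with a log2 fold change of -1.03 (adjusted p = 0.028, edgeR). *ifi27.7* had 22, 37 and 19 whole counts against 7, 7 and 7, and of the other 3 family rows tested none was called.

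Of the 37 members with a place in the gene order 6 (16.2%) had another member as the next gene, in 3 pairs. Neighbours here and below are rows of the count table matched by name, so a gene without such a row could lie between. Among the other 1286 clone-named rows placed, 20 (1.56%) had a member as the next gene. These shares were not tested. *zgc:112970* and *zgc:174680*, at ratios of 3.43 and 4.42, were the pair with the most counts. *zgc:91850*, with 62.39, 43.07 and 49.68 counts against 24.35, 6.52 and 13.17, lies next to *zgc:174355*, with 22.57, 21.47 and 14.68 against 4.17, 6.35 and 6.27. *si:dkey-22h13_5* and *si:dkey-22h13_6*, both long non-coding RNAs, form the third pair, with 92.39, 97.54 and 108.23 counts against 10, 12 and 12.74 for the former.

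Genes next to a member were not chosen by the rule. Of 53 tested 4 fell (7.55%) and 6 rose (11.3%), with a median log2 fold change of 0.00, beside 1.84% and 2.55% of all rows tested that are no members. Many neighbours carry clone names, and among clone-named rows that are no members these shares were 3.35% and 6.1%. With 3 genes on each side 9 of 159 fell (5.66%) and 11 rose (6.92%). *si:dkey-253d23_4* and *si:ch73-7i4_2*, among the 4 that fell, were already counted above as rows from the clones of members. 2 of the 4 neighbours that fell flank the same member: *wu:fj08f03* lies between *irg1l* and *sb:cb252*. *irg1l* is related to the mammalian gene whose enzyme makes itaconate in activated macrophages. It had 177, 156 and 215 counts in wildtype and 18, 31 and 15 in mutants (-3.12 ± 0.208 log2 units, adjusted p = 2.1e-06 in edgeR). *sb:cb252* had 875, 992 and 1132.96 against 296, 357 and 302 (-1.68 ± 0.0809 log2 units, adjusted p = 2.3e-07 in edgeR). Counts of these 3 adjacent rows were whole but for a single library of *sb:cb252*. Wildtype and mutant libraries did not overlap in *irg1l* or *sb:cb252*, and in *wu:fj08f03* the rule required this. The share of such gaps over all rows was not computed, so nothing is read from them. The myeloid marker sum, over 2 genes, was 8.74 to 10.5 CPM in wildtype and 19.4 to 27.1 CPM in mutants. It is among several marker sums given above without overlap between genotypes, the epidermis sum being another. The relation of any marker sum to these rows was not tested.

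Other members lay beside genes that went the opposite way. *si:dkey-269i1_3*, next to *si:dkey-239j18_3*, was at 324 ± 26.0 CPM in wildtype libraries and rose to 624 ± 25.6 in mutant libraries (± SD over 3 libraries, 1.00 log2 units, adjusted p = 5.7e-07 in edgeR), and *ctslb*, on the other side, was at 3171 ± 152 and 3384 ± 165 CPM and was not called. *zgc:194839*, next to *si:dkey-56i24_1*, rose from 18.0 to 58.6 CPM (log2 fold change 1.75, adjusted p = 2.1e-07 in edgeR), and *gbp4*, a guanylate-binding protein gene next to *si:dkey-61p9_7*, rose from 0.611 to 1.49 CPM (1.32, 0.0072).

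Near the limits of the rule the choice was narrow. Just inside the ratio limit lay *si:dkey-7j22_4*, *si:dkey-230i18_1* and *si:ch211-196h16_5* at 3.01, 3.02 and 3.03, and just outside it *CR396586_2*, *si:dkey-253d23_4* and *CR450840_3* at 2.98, 2.95 and 2.94. Just inside the limit on level lay *si:ch211-142k18_1*, *BX537120_1* and *zgc:174355* at 0.507, 0.508 and 0.509 CPM, and just outside it *si:ch211-168d23_3*, *si:dkey-183n20_8p* and *si:dkey-43l17_1* at 0.498, 0.488 and 0.474 CPM. *si:dkey-43l17_1*, with 26.68, 7.3 and 22.17 counts in wildtype and 0.23 in all mutant libraries together, was left out by its level alone.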

How the data were processed

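The authors prepared stranded, poly(A)-selected libraries, checked reads with FastQC, aligned them to the DanRer7 transcriptome with RSEM (1.2.28 in the submitters' processing notes, which also list GRCz10), took out ribosomal RNA, and deposited unnormalized expected counts by gene and library. The deposited fold changes and p-values of their own DESeq2 comparison were not used. Count columns carry letters and the labels carry numbers, so columns were assigned to genotypes and are called by their letters. The table holds 0 further columns of per-library values. The labels do not say that libraries came from separate clutches, so p-values measure only the spread between these libraries, which may be technical.

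Members and lists were chosen with earlier results of these data known. CPM was computed per column sum and is not divided by length, so an order of rows by CPM is one of counts and not of transcript levels. Expected counts were rounded and fitted with edgeR 4.0.16 in R 4.3.3 (TMM, filterByExpr, glmQLFit and glmQLFTest, Benjamini-Hochberg adjustment over 20021 rows), which was tested on simulated data. With 3 libraries a group, an exact permutation test cannot go below a p of 0.1. Standard errors of log2 fold changes were not given by the fit. They were taken as the absolute log2 fold change divided by the square root of the quasi-likelihood F statistic, and are approximate. Counting intervals are 95% exact binomial. Loci were named as the highest 12 by wildtype level, the 10 largest ratios, members sharing a clone or a neighbour, whole-count members among the 20 highest, and the rows at each limit. The other whole-count rows, the further rows with large ratios, the clone rows, neighbours and relatives named were chosen after their values were seen. Product descriptions were not used here, so relatives were found by symbol. No sequences or coordinates are given, since the annotation used is of another build. Alternatives were other scalings, limits, tests and filters, and leaving out each library.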

Additional observations from a re-analysis of the deposited data

How the results depend on the processing

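The number of members depends on the limits set. It was 250 with a ratio of at least 2 and 77 with a ratio of at least 4, 111 after TMM scaling or with DESeq2 size factors, 82 with a wildtype level of at least 1 CPM, 125 without the requirement of no overlap, and 117 to 132 with a library left out, of which 103 to 113 were among the 120. Requiring more than 1 CPM in 3 libraries, which tests fewer rows, gave 552 calls over all genes in place of 992 and 70 members called in place of 118. With a library left out these were 881 to 1039 and 111 to 119. DESeq2 called 900 genes and 115 members, and limma-voom 1017 genes. Rows of the same clones called lower were between 10 and 18, and neighbouring genes called lower between 4 and 6, under the other tests, filters and left-out libraries. Neither was recomputed for the members that other limits or CPM scalings give. Whole counts were found in 22 members with a tolerance of 0.05 and in 23 over wildtype libraries alone, and 8 members lay within 3 genes of another member. For 40 named members 429 fold changes were available under 11 other settings. Of these values 0 changed sign and 0 lost the call, and *si:dkey-22h13_6* gained the call without mutant replicate D. The members were chosen with every mutant CPM below every wildtype CPM. Their sign was thus set by the rule, and nothing is read from its stability or from that of the calls. Named members that did not pass the filter of more than 1 CPM in 3 libraries have no value there. Under that filter their calls are missing and were not counted as lost. Leaving out 1 mutant library moved the fold change by over 1.5 times in 7 of the 40 named members. Of these 7, 4 had more than 3 mutant counts and are given with their values above. The others were *BX649556_2* (-5.94 to -8.62 without replicate D), *si:dkeyp-44b5_3* (-6.74 to -8.63 without replicate D) and *si:dkeyp-110b2_2* (-6.58 to -8.44 without replicate A). They are then left with under 1 mutant count. No paired analysis was possible because the columns carry letters and not the replicate numbers of the labels, and no source used here says that a shared letter marks a shared pool or day. Depth limits the rows under 1 CPM most, where wildtype counts varied most.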
